A study of Glycine max with 6 samples.

Results

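Water channels were followed in leaves of HN95, a soybean (Glycine max) cultivar, in 3 libraries from plants whose leaves were sprayed with mesoporous silica nanoparticles (MSN, particles of porous silicon dioxide) and 3 libraries from control plants. All 6 libraries came from plants of 1 genotype label, WT, under saline-alkaline stress, given as a soil solution of sodium chloride, sodium carbonate, sodium bicarbonate and sodium sulfate, and the leaves were taken 7 days after the spray. The protocol names a spray of 20 mg/L, but the tags of MSN replicates 1, 2 and 3 read 20, 21 and 22 mg/L. The labels do not say what the control leaves were sprayed with, and no unstressed plants were part of the comparison. The water channel genes are those that the deposited table annotates with the Gene Ontology (GO) term for water channel activity, which is 51 of 45967 genes. A sum of at least 60 counts over the 6 libraries kept 43 of them. The 8 left out had sums of 3 to 24 counts, and the lowest sum among the kept genes was 89.

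Water channels, or aquaporins, are membrane proteins that let water move down its potential through a narrow pore. Plants carry large families of them. Plasma membrane intrinsic proteins pass water into and out of the cell, tonoplast intrinsic proteins pass it across the vacuole membrane, and some aquaporins also carry glycerol, urea, boric acid or silicic acid. In leaves, water leaves the xylem and crosses bundle sheath and mesophyll cells on its way to the stomata, and aquaporins form part of that path. In rice, silicon is taken up through an aquaporin of the nodulin-like intrinsic protein subfamily, together with an efflux carrier of another family.

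The table gives the water channel genes no descriptions, no KEGG orthologies and no gene symbols, so they are called by their identifiers and sorted by the compartment terms they carry. The plasma membrane term was on 24 kept genes, and 7 of these also carried terms for the vacuole and for plasmodesmata, the channels between plant cells. The vacuole membrane term alone was on 5, which are called vacuolar here. The other 14 carried no compartment beyond membrane. The sources used here hold no sequences of these genes.

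The libraries held 63981150 to 67923813 counts in MSN and 65537749 to 67795796 in control. Small counts piled up at 4, which took 17.7 to 19.0% of all counts from 1 to 12, against 4.92 to 6.70% for the value 2, so that 1 counting event may have added several counts and values of a few counts are less certain than they look. Titles call the replicates biological but do not say if a library stands for a plant or pot of its own, so p-values measure the spread between these libraries. Leaf genes were abundant: the 39 light harvesting genes summed to 9138 to 9585 CPM (counts per 1000000) in MSN and 6535 to 6851 CPM in control.

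Water channel genes changed in both directions in MSN leaves, with falls among abundant plasma membrane genes and rises among vacuolar genes and many weakly expressed ones. Of the 43 genes, 22 were higher in MSN leaves, 12 were lower and 9 did not pass the test (edgeR quasi-likelihood test, adjusted p threshold 0.05). That is 79.1% called, against 59.3% of the 39203 genes tested. Higher calls made up 29.6% of all genes tested and lower calls 29.7%. The median log2 fold change was 0.20 over the water channel genes and 0.01 over all genes. Among the 24 plasma membrane genes 9 were higher and 10 lower (median -0.07). The 7 of them that also carry the vacuole term had 3 higher and 2 lower (median 0.21). Among the 5 vacuolar genes 4 were higher and 0 lower (median 0.54). Among the 14 genes with no compartment 9 were higher and 2 lower (median 1.09). The difference between these classes was not tested. Changes of at least 1 on the log2 scale past the threshold were frequent: 13 genes rose and 9 fell by that much, where 9.27% of all tested genes rose and 7.01% fell. In 34 of the 43 genes the ranges of the groups' CPM values did not overlap, which held for 65.0% of all tested genes. In leaf tissue taken whole, fewer cells of a type and less RNA per cell cannot be told apart.

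**Figure D1:**
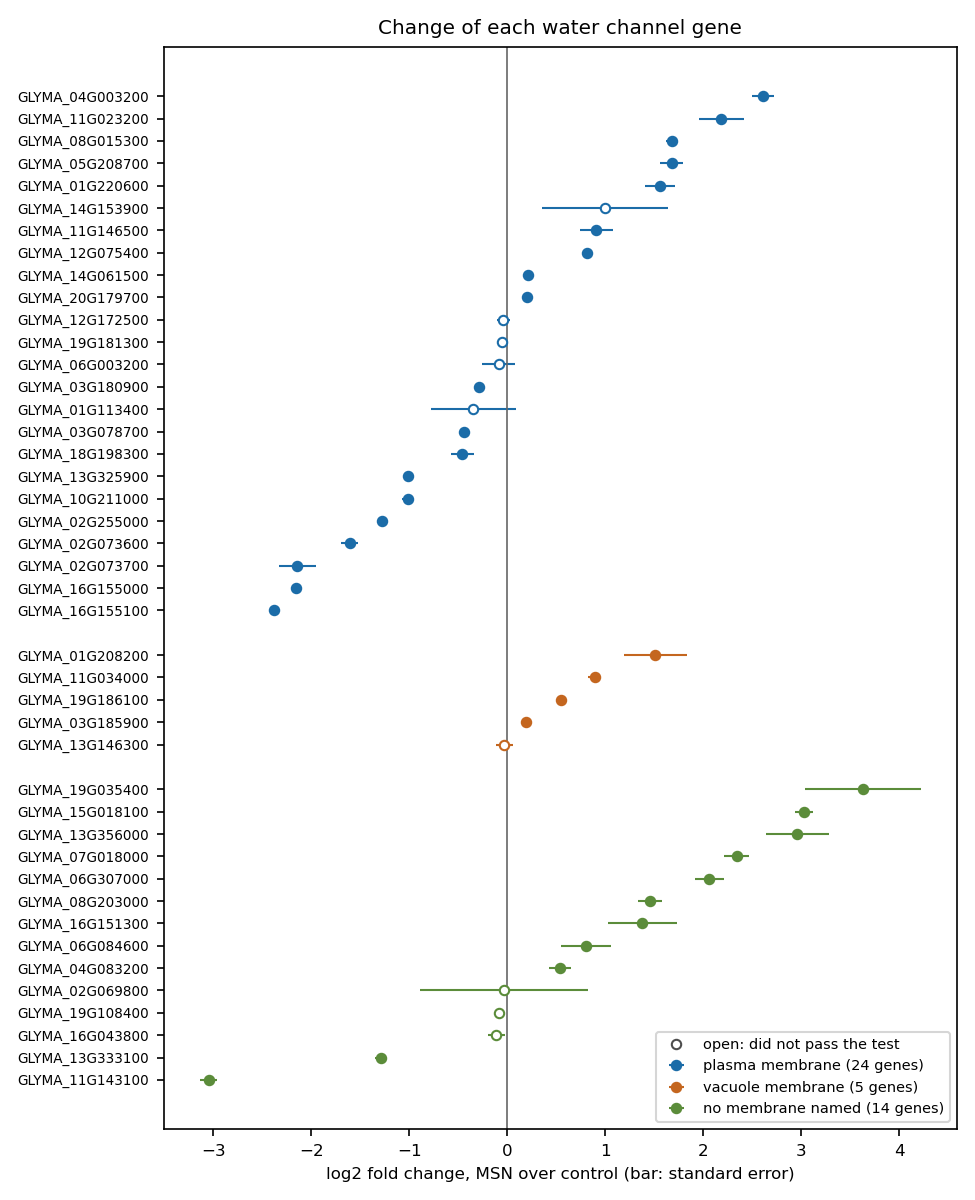
Log2 fold change of each of the 43 water channel genes, MSN over control (x axis), in 3 blocks by annotated compartment. Points are edgeR estimates with standard errors as bars, filled where the gene passed the test and open where it did not. Plasma membrane genes run from -2.38 to 2.61, the 4 filled vacuolar genes lie above 0, and genes with no compartment run from -3.05 to 3.63.

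Of the 10 plasma membrane genes that fell, 7 were above 60 CPM in control leaves. Control levels are part of the fold change, so falling genes stand higher and rising genes lower by them. The cutoffs on control CPM, here and below, were not fixed in advance. GLYMA_16G155000 had 62.5, 57.5 and 60.7 CPM in MSN libraries, against 282, 260 and 264 CPM in control libraries. Every MSN library was thus below every control library, and the mean fell to 0.224 of the control mean (log2 fold change -2.16, SE 0.04, edgeR adjusted p = 1.64e-17). GLYMA_02G255000, which also carries the vacuole and water deprivation response terms, had 177, 180 and 184 CPM in MSN and 431, 427 and 450 CPM in control. It fell to 0.413 of the control mean (log2 fold change -1.28, SE 0.03, edgeR adjusted p = 6.88e-16). GLYMA_16G155100, the largest fall of the class, had 23.3, 23.5 and 23.3 CPM in MSN and 123, 122 and 121 CPM in control (log2 fold change -2.38, SE 0.04, edgeR adjusted p = 3.94e-18). The groups lay far apart in all 3 genes, with little spread among the replicates.

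The falling genes include both pairs of water channel genes that lie next to each other in the table's coordinates, with no listed gene between them. GLYMA_16G155000 (chromosome 16, 31513389 to 31517035, minus strand) and GLYMA_16G155100 (31522889 to 31524889, minus strand) are 5853 bp apart. GLYMA_02G073600 (chromosome 2, 6421649 to 6424849, minus strand) and GLYMA_02G073700 (6434383 to 6437873, minus strand) are 9533 bp apart. The sources used here do not name the genome build of these coordinates. GLYMA_02G073600 averaged 8.03 ± 0.893 CPM in MSN and 24.5 ± 1.60 CPM in control, and GLYMA_02G073700 averaged 1.52 ± 0.444 CPM in MSN and 6.71 ± 0.824 CPM in control (SD, n = 3 each). All 4 genes of the pairs fell, by 1.61 to 2.38 on the log2 scale. How reads shared between close copies were counted is not given, so the split of counts within a pair is uncertain.

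Other plasma membrane genes fell by less. GLYMA_13G325900, which also has the vacuole and water deprivation terms, averaged 43.8 ± 3.80 CPM in MSN and 88.2 ± 3.03 CPM in control (SD, n = 3 each). GLYMA_10G211000 averaged 30.6 ± 0.454 CPM in MSN and 62.0 ± 5.03 CPM in control. Their log2 fold changes were -1.01 and -1.02. GLYMA_03G078700, GLYMA_03G180900 and GLYMA_18G198300 fell by 0.44, 0.29 and 0.46 on the log2 scale.

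Of the 9 plasma membrane genes that rose, 6 were below 15 CPM in control leaves, a level that is itself part of the change. GLYMA_04G003200 had 17.9, 18.8 and 16.45 CPM in MSN and 2.72, 3.01 and 2.96 CPM in control. It was 6.11 times as high in MSN, with no overlap of the groups (log2 fold change 2.61, SE 0.11, edgeR adjusted p = 3.18e-13). GLYMA_11G023200, a gene with the water deprivation term, had 2.53, 2.84 and 2.53 CPM in MSN and 0.631, 0.483 and 0.623 CPM in control (log2 fold change 2.18, SE 0.23, edgeR adjusted p = 1.90e-07). GLYMA_08G015300, which carries the plasma membrane, vacuole and plasmodesma terms, averaged 44.7 ± 1.39 CPM in MSN and 13.96 ± 0.619 CPM in control. GLYMA_05G208700, with the same terms, averaged 18.3 ± 1.07 CPM in MSN and 5.72 ± 1.05 CPM in control. Both of these rose by 1.68 on the log2 scale. GLYMA_01G220600 and GLYMA_11G146500, at 5.81 ± 0.780 and 4.41 ± 0.191 CPM in MSN and 1.97 ± 0.0299 and 2.35 ± 0.461 CPM in control, rose by 1.56 and 0.91. GLYMA_12G075400 had 106 ± 3.55 CPM in MSN and 60.2 ± 2.79 CPM in control (log2 fold change 0.81, SE 0.05).

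GLYMA_19G181300, the plasma membrane gene with the highest mean FPKM in both groups, did not pass the test. It had 298, 313 and 312 CPM in MSN and 311, 317 and 328 CPM in control, and the groups overlapped (log2 fold change -0.05, SE 0.03, edgeR adjusted p = 0.216). GLYMA_14G061500, with the vacuole and water deprivation terms, had 327, 320 and 332 CPM in MSN and 285, 273 and 289 CPM in control. This rise was small but clear of the replicate spread (log2 fold change 0.21, SE 0.03, edgeR adjusted p = 3.84e-05). GLYMA_20G179700 rose by a like amount, 0.20 on the log2 scale. GLYMA_12G172500, GLYMA_06G003200, GLYMA_01G113400 and GLYMA_14G153900 did not pass, and the last of these had 11, 18 and 32 counts in MSN and 6, 11 and 14 in control, too few to show a change of this size.

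The response to water deprivation term is on 12 of the 24 plasma membrane genes and on no other kept gene. Where 29.6% of all tested genes were higher and 29.7% lower, higher calls came to 5 of these 12, lower calls to 4, and 3 did not pass (median log2 fold change 0.08). Of the 12 plasma membrane genes without the term, 4 were higher, 6 lower and 2 did not pass (median -0.19). Genes with and without the drought term thus both included rises and falls, and the difference between the sets was not tested.

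**Figure D2:**
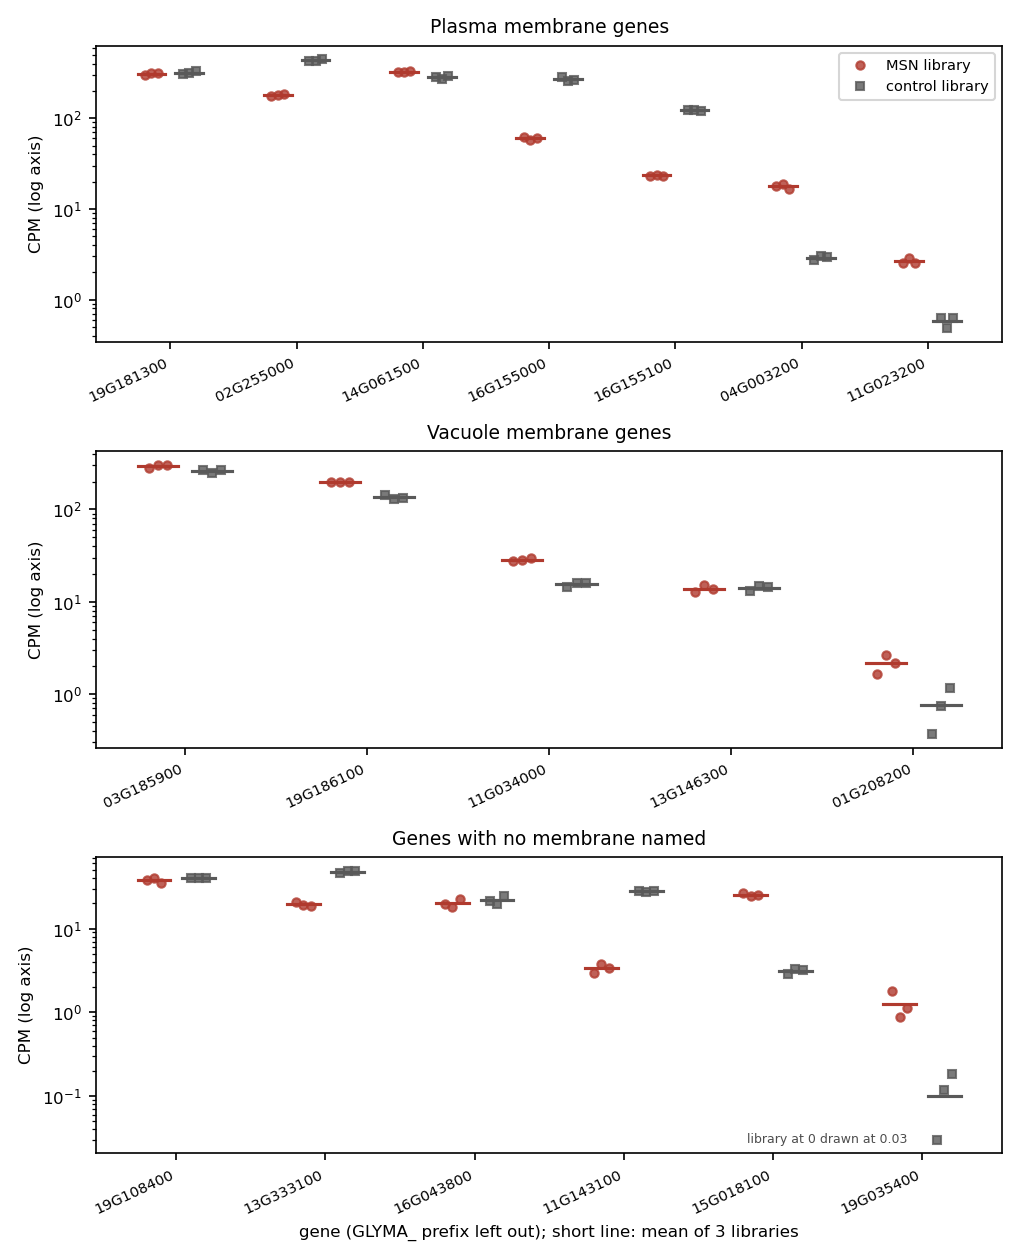
CPM (log axis) of the genes described with all their library values, in 3 panels by compartment, with circles for the 3 MSN libraries, squares for the 3 control libraries and short lines for their means. In the upper panel GLYMA_16G155000 and GLYMA_16G155100 lie lower in MSN and GLYMA_04G003200 and GLYMA_11G023200 higher. In the lower panel GLYMA_11G143100 and GLYMA_15G018100 move in opposite directions.

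Vacuolar genes went in 1 direction among those that passed. GLYMA_03G185900, the only water channel gene that also carries a glycerol transport term, had 279, 300.5 and 305 CPM in MSN and 266, 247 and 264 CPM in control. Its rise was small, with the lowest MSN library above the highest control library (log2 fold change 0.19, SE 0.04, edgeR adjusted p = 6.26e-04). GLYMA_19G186100 had 198, 198 and 197 CPM in MSN and 144, 130 and 133 CPM in control. The MSN libraries were close together and clearly above control (log2 fold change 0.54, SE 0.04, edgeR adjusted p = 1.20e-09). GLYMA_11G034000 had 27.8, 28.2 and 30.01 CPM in MSN and 14.3, 15.9 and 16.1 CPM in control (log2 fold change 0.89, SE 0.07). GLYMA_01G208200 was the weakest, with 1.66, 2.67 and 2.20 CPM in MSN and 0.369, 0.746 and 1.17 CPM in control (log2 fold change 1.51, SE 0.32, edgeR adjusted p = 5.49e-04). GLYMA_13G146300 had 12.6, 15.1 and 13.8 CPM in MSN and 13.2, 14.6 and 14.6 CPM in control, overlapped between the groups and did not pass (edgeR adjusted p = 0.780).

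Genes with no annotated compartment held the largest changes in both directions. GLYMA_11G143100 had 2.98, 3.74 and 3.36 CPM in MSN and 27.9, 27.5 and 28.0 CPM in control, a mean of 0.121 of control (log2 fold change -3.05, SE 0.09, edgeR adjusted p = 2.18e-15). GLYMA_15G018100 had 26.6, 24.5 and 25.04 CPM in MSN and 2.85, 3.29 and 3.20 CPM in control, 8.15 times as high (log2 fold change 3.03, SE 0.09, edgeR adjusted p = 2.47e-15). Each of these genes was near 3 CPM in 1 group and above 24 CPM in the other. GLYMA_13G333100, the other gene of the class that fell, had 20.9, 19.2 and 18.7 CPM in MSN and 45.7, 49.5 and 48.2 CPM in control (log2 fold change -1.29, SE 0.06).

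The other rises of this class came from genes below 5 CPM in control leaves, apart from GLYMA_04G083200 at 11.7 ± 1.48 CPM in MSN and 8.05 ± 0.452 CPM in control. GLYMA_07G018000 averaged 17.1 ± 2.04 CPM in MSN and 3.38 ± 0.506 CPM in control, and GLYMA_06G307000 averaged 11.7 ± 1.30 CPM in MSN and 2.79 ± 0.551 CPM in control (SD, n = 3 each). GLYMA_08G203000 averaged 11.2 ± 1.26 CPM in MSN and 4.09 ± 0.134 CPM in control. These 3 rose by 2.34, 2.06 and 1.46 on the log2 scale. GLYMA_19G035400 had the largest fitted rise of all water channel genes and the largest standard error among those that passed, with 116, 60 and 71 counts in MSN and 0, 8 and 12 counts in control (log2 fold change 3.63, SE 0.59, edgeR adjusted p = 3.61e-05). Among its control libraries only replicate 3 reached the filter's minimum of 10 counts, so the gene passed the filter through its MSN libraries. The size of its rise is therefore uncertain, though it is counted among the rises of at least 1 on the log2 scale. GLYMA_13G356000 and GLYMA_16G151300 rose by 2.96 and 1.38 from low levels. GLYMA_06G084600 rose by 0.81, and this call rests on single libraries: without MSN replicate 2 its adjusted p was 0.0799 and without control replicate 1 it was 0.0542.

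GLYMA_19G108400 and GLYMA_16G043800, among the 4 most abundant genes of this class by mean CPM, did not pass. The first had 38.1, 40.3 and 35.2 CPM in MSN and 40.0, 40.6 and 39.8 CPM in control (log2 fold change -0.08, SE 0.05, edgeR adjusted p = 0.204). The other had 19.7, 18.0 and 22.7 CPM in MSN and 21.2, 19.8 and 24.3 CPM in control, with more spread within each group than between them (edgeR adjusted p = 0.274). GLYMA_02G069800 had 9, 35 and 0 counts in MSN and 9, 25 and 11 counts in control, so that no change could be seen at this depth.

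The transcript pool of the 43 genes, taken per gene length as summed FPKM (fragments per kilobase, scaled to the fragments of each library, the authors' values), was smaller in MSN leaves and differently made up. It came to 1342, 1351 and 1370 FPKM in MSN and 1571, 1535 and 1572 FPKM in control, 0.869 of the control mean. The plasma membrane genes summed to 840, 837 and 856 FPKM in MSN and 1138, 1113 and 1142 FPKM in control. The vacuolar genes summed to 376, 393 and 392 FPKM in MSN and 315, 297 and 309 FPKM in control. The 7 genes with both the plasma membrane and the vacuole term fell as a sum. They came to 331, 329 and 340 FPKM in MSN and 408, 401 and 416 FPKM in control. These 7 are in the plasma membrane sum, so the vacuolar rise does not cover all genes with a vacuole term. The genes with no compartment summed to 125, 122 and 122 FPKM in MSN and 118, 124 and 121 FPKM in control, with overlapping groups. For the whole pool, the plasma membrane and the vacuolar sums an exact 2-sided permutation test gave p = 0.1, the smallest p that 3 against 3 libraries allow, and it gave p = 0.4 for the genes with no compartment.

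In the shares of the pool, the 7 genes with both the plasma membrane and the vacuole term count as plasma membrane genes. Plasma membrane genes made up 62.3 ± 0.343% of the pool in MSN leaves and 72.5 ± 0.115% in control leaves. Vacuolar genes made up 28.6 ± 0.498% in MSN and 19.7 ± 0.345% in control (SD, n = 3 each). The order of the leading genes by mean FPKM changed with this. In MSN leaves the order was GLYMA_03G185900 at 218 FPKM, GLYMA_19G181300 at 189, GLYMA_14G061500 at 173 and GLYMA_19G186100 at 135. In control leaves the order was GLYMA_19G181300 at 195 FPKM, GLYMA_03G185900 at 191, GLYMA_02G255000 at 176, GLYMA_16G155000 at 172 and GLYMA_14G061500 at 149. In control, the library values of GLYMA_19G181300 and GLYMA_03G185900 overlapped, and so did those of GLYMA_02G255000 and GLYMA_16G155000. A vacuolar gene thus led the MSN list, and GLYMA_16G155000 held 2.85 ± 0.142% of the pool in MSN and 11.01 ± 0.393% in control.

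**Figure D3:**
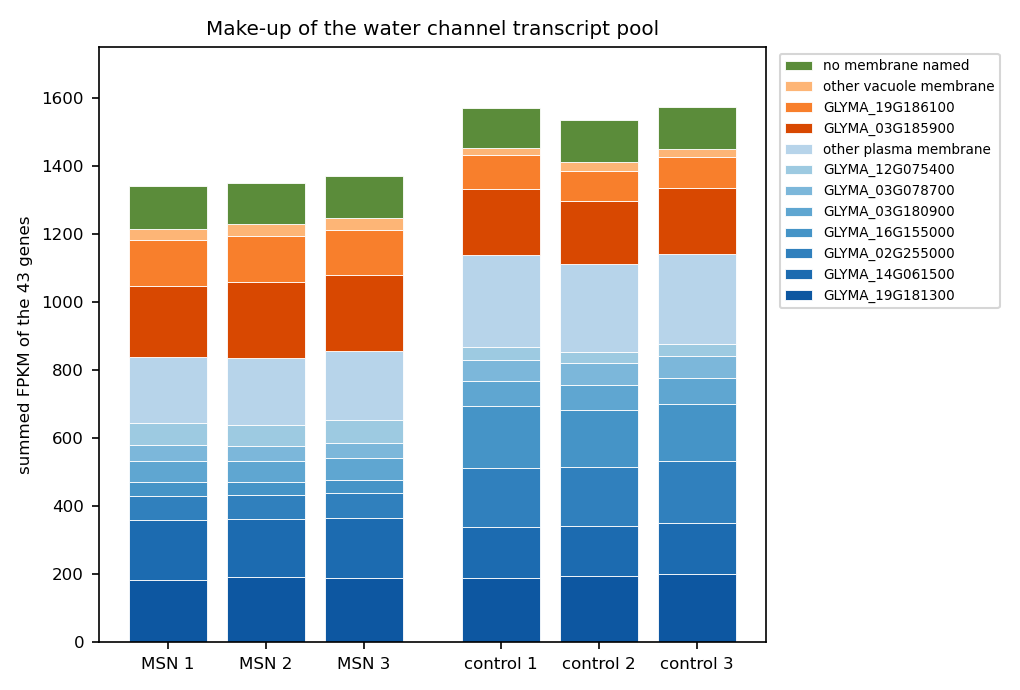
Summed FPKM of the 43 water channel genes in each library, stacked by gene for the 9 most abundant and by class for the rest, with plasma membrane genes in blue, vacuolar genes in orange and genes with no compartment in green. The blue part is shorter in the 3 MSN bars (837 to 856 FPKM) than in the 3 control bars (1113 to 1142 FPKM), mostly through GLYMA_02G255000 and GLYMA_16G155000, and the orange part is longer. GLYMA_02G255000 also carries the vacuole term.

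Weakly expressed water channel genes held most of the rises. A split at a mean of 20 FPKM over all 6 libraries was set after the values were seen. Of the 27 genes below it, 16 were higher and 4 lower (74.1% called, median log2 fold change 0.91). Of all tested genes below 20 FPKM, 55.8% were called, 28.3% higher and 27.5% lower. Rises of at least 1 on the log2 scale were called in 12 of the 27 and falls of that size in 3, against 9.92% and 7.15% of all tested genes below 20 FPKM. Of the 16 genes at or above 20 FPKM, 6 were higher and 8 lower (87.5% called, median -0.19). Of all tested genes of such levels 81.3% were called, 37.4% higher and 43.8% lower. Falls of at least 1 were called in 6 of the 16 and rises of that size in 1, against 6.12% and 5.25% of all tested genes of such levels. The difference between the levels was not tested.

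**Figure D4:**
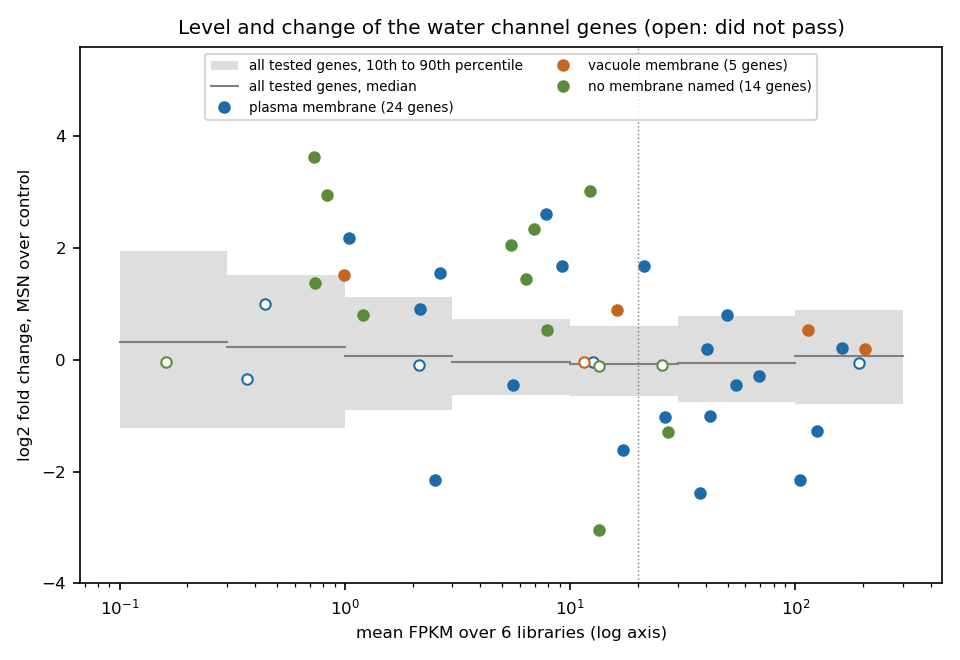
Log2 fold change, MSN over control (y axis), against mean FPKM over all 6 libraries (log x axis) for the 43 water channel genes, coloured by compartment and open where the test was not passed. Grey bands hold the middle of all tested genes (10th to 90th percentile) at each level and the dotted line marks 20 FPKM. Of the 20 genes below 20 FPKM that passed, 16 lie above 0. Of the 6 falls of at least 1 at or above 20 FPKM, all but GLYMA_13G333100, which has no compartment, are in plasma membrane genes.

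No gene in the table could be identified as a silicon carrier. The words silicon, silicate and silicic acid occur in 0 of its gene annotations. None of the water channel genes has a borate transport, borate efflux or arsenite term, and other boron terms were not searched. A further 20 genes have the parent term, channel activity, without the water channel term. Of the 14 that were tested, 3 were higher, 5 lower and 6 did not pass, which is 57.1% called and near the 59.3% of all tested genes. They are described because the annotation does not say what they carry. They were chosen after the annotation was seen. GLYMA_09G238200 had 5.79, 5.54 and 5.71 CPM in MSN and 1.35, 1.59 and 1.63 CPM in control, 3.73 times as high (log2 fold change 1.90, SE 0.15, edgeR adjusted p = 4.73e-09). GLYMA_13G224900, the most abundant of the 20 by FPKM, averaged 44.7 ± 1.42 CPM in MSN and 31.3 ± 0.0430 CPM in control. GLYMA_15G003900 and GLYMA_11G097700 fell by 2.72 and 2.48, to 0.517 ± 0.329 and 0.568 ± 0.0448 CPM in MSN, against 3.41 ± 0.381 and 3.18 ± 0.353 CPM in control.

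GLYMA_08G120100, annotated to nodulation and to the membrane around the symbiotic bacteria of root nodules, had 5, 0 and 12 counts in MSN leaves and 9, 4 and 0 in control leaves, close to the 12 counts per group that a count of 0 allows when 1 event adds 4 counts. Arsenite passes through silicon carriers in rice. The only gene whose annotation names arsenite, GLYMA_10G232600, is not a water channel gene, and a link of it to silicon was not tested. It had 29.4, 30.03 and 34.4 CPM in MSN and 17.2, 18.2 and 15.6 CPM in control (log2 fold change 0.88, SE 0.07, edgeR adjusted p = 8.21e-09). The borate carriers, which move boric acid out of cells, had 4 of 11 tested genes higher and 6 lower. That is 90.9% called, against 59.3% of all tested genes, of which 29.6% were higher and 29.7% lower. The borate carriers summed to 122 to 130 CPM in MSN and 204 to 212 CPM in control. GLYMA_04G069500, the most abundant of those called by control CPM, averaged 16.1 ± 0.977 CPM in MSN and 82.7 ± 1.57 CPM in control. GLYMA_04G184000, of nearly the same mean CPM over all 6 libraries, fell by less. It averaged 44.85 ± 2.47 CPM in MSN and 53.5 ± 0.925 CPM in control.

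Other gene lists of water and osmotic balance are given beside the 59.3% of all tested genes that were called. Leaving out the water channel genes, the response to water deprivation term had 7 of 26 genes higher and 5 lower (46.2% called, median log2 fold change 0.07). GLYMA_08G002700, an aldehyde dehydrogenase gene of that list, averaged 156 ± 2.17 CPM in MSN and 218 ± 9.24 CPM in control, and GLYMA_09G187200, an aspartic endopeptidase gene, averaged 103 ± 1.74 CPM in MSN and 84.6 ± 1.41 CPM in control. Of 8 tested genes for the response to osmotic stress 0 were higher and 3 lower (37.5% called), among them GLYMA_12G073000, a MAP kinase gene, at 74.0 ± 2.39 CPM in MSN and 107 ± 3.76 CPM in control. The response to salt stress had 37 of 79 tested genes higher and 20 lower (72.2% called, median 0.22). Its summed CPM was nevertheless lower in MSN, at 2348 to 2433 CPM against 2864 to 2981 CPM in control. The 2 called genes of highest mean CPM in it, GLYMA_02G268000 and GLYMA_14G049500, fell by 0.67 and 1.23 on the log2 scale.

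Proton pumps energise the membranes that water channels sit in. Genes for the plasma membrane proton pump had 6 of 28 tested higher and 9 lower (53.6% called, against 59.3% of all tested genes, median log2 fold change -0.10). The most abundant called genes moved apart: GLYMA_05G030700 averaged 272 ± 6.08 CPM in MSN and 144 ± 4.19 CPM in control, and GLYMA_14G134100 averaged 199 ± 3.44 CPM in MSN and 257 ± 4.87 CPM in control. The list for rotary proton ATPases, fixed for the vacuolar pump, had 5 of 52 higher and 19 lower (46.2% called). Its most abundant called genes, GLYMA_10G267200 and GLYMA_20G123600, are annotated to the mitochondrial ATP synthase, so the list is not the vacuolar pump alone. Inorganic diphosphatases, some of which pump protons into the vacuole, had 5 of 20 higher and 8 lower (65.0% called).

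Lists annotated to particular tissues are set beside the 59.3% of all tested genes that were called, 29.6% higher and 29.7% lower. For leaf mesophyll, the light harvesting term had 32 of 39 tested genes higher and 2 lower (87.2% called). Ribulose-bisphosphate carboxylase activity had 6 of 6 higher, summing to 22030 to 23060 CPM in MSN and 9627 to 10230 CPM in control. Phloem and xylem development terms had 21 of 40 tested genes higher and 2 lower (57.5% called), summing to 298 to 322 CPM in MSN and 214 to 221 CPM in control. Secondary wall terms, which mark xylem and fibres, had 5 of 75 higher and 53 lower (77.3% called), summing to 612 to 643 CPM in MSN and 987 to 1027 CPM in control. Stomatal terms had 4 of 16 higher and 1 lower (31.2% called, 63.7 to 66.4 CPM in MSN and 69.7 to 78.1 CPM in control), and root development terms 13 of 51 higher and 13 lower (51.0% called, 1272 to 1282 CPM in MSN and 1297 to 1319 CPM in control). None of the genes in these lists was at 0 in all 6 libraries. The part of these lists' values in the water channel results was not tested.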

How the data were processed

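The deposited table holds whole-number counts per gene and library, which the authors did not normalise, and FPKM values that the authors scaled by gene length and library total, per the file headers. The submitters' processing notes name DESeq2 1.34.0 and R 4.1.2 without saying what each did. The aligner, the counter, its strand setting, the build and the annotation release were not given in the sources used here. Per the labels' protocols, libraries were made from oligo(dT)-selected RNA. A reference gene table matched 0 of the 51 identifiers and was not used.

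The test was run on the counts in edgeR 4.0.16 under R 4.3.3 (TMM scaling with factors of 0.992 to 1.01, filterByExpr, quasi-likelihood test, 2-sided, group as the only term), with Benjamini-Hochberg adjustment over 39203 genes. All 43 water channel genes passed the filter. CPM are TMM-scaled, and errors are SD over 3 libraries. FPKM was used for the transcript pool, the order of its genes and the split at 20 FPKM. Levels given in CPM are not scaled by gene length. Alternatives were DESeq2 1.42.0, limma 3.58.1 on FPKM or quantile-normalised values, other scalings and filters, counts divided by 4, and libraries left out.

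The water channel genes and lists were chosen with earlier results of these data known. Named with library values were, in each class, the 4 genes of highest mean CPM and the 2 largest rises and 2 largest falls past the threshold, and any gene with a glycerol, borate, arsenite or silicon term. In other lists, up to 2 called genes of highest mean CPM were named. Other genes were named after their values were seen.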

Additional observations from a re-analysis of the deposited data

How the results depend on the processing

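The 22 higher and 12 lower water channel calls stood at 22 and 12 under DESeq2, RLE size factors, no filter, counts divided by 4, quantile normalisation, FPKM with pseudocounts of 1 and 0.1, and with no minimum on the summed counts. Leaving out each library in turn gave 21 to 22 higher and 12 lower, and 10515 to 11206 higher and 10849 to 11246 lower over all genes. Of the 34 genes called, 33 kept their call in all 14 refits, with GLYMA_06G084600 the exception given above, and 0 changed direction. The 9 not called stayed so, in 13 refits for GLYMA_02G069800 and GLYMA_14G153900, which had no value with counts divided by 4. Of these 9, GLYMA_02G069800 (-0.03; 0.20 to 0.54 in 3 refits) and GLYMA_13G146300 (-0.03; 0.03 without MSN replicate 1) changed sign. Median shifts of all genes between scalings stayed under 0.02 on the log2 scale. With channel activity as the term, chosen after seeing the data, 25 were higher and 17 lower. Asking for a change of at least 1 on the log2 scale, also chosen then, left 13 higher and 9 lower. The log2 ratio of summed CPM, MSN over control, was -0.27 for all genes of the family and -0.48 for plasma membrane genes. With summed FPKM, which divides out gene length, these ratios were -0.20 and -0.42. The ratio of summed CPM was 0.34 for vacuolar genes and 0.03 for the rest. Replicate numbers are shared between groups, but same-numbered libraries did not deviate together (correlations of -0.003, 0.010 and 0.002 over genes). With the replicate block, 22 water channel genes were higher and 12 lower. Membership by the word aquaporin was not run, since no annotation holds it. Depth limits the genes under about 100 counts in all: GLYMA_02G069800 and GLYMA_14G153900. It also limits the control side of GLYMA_19G035400, at 0, 8 and 12 counts.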

Other observations

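Ammonium transporters, membrane proteins that take up nitrogen as ammonium, had 1 of 9 tested genes higher in MSN leaves, 1 lower and 7 that did not pass (22.2% called, against 59.3% of all tested genes). GLYMA_10G167800 averaged 9.91 ± 0.487 CPM in MSN and 7.54 ± 0.439 CPM in control (log2 fold change 0.40, SE 0.11, edgeR adjusted p = 0.00403), and GLYMA_10G132300 averaged 12.9 ± 1.47 CPM in MSN and 21.1 ± 1.73 CPM in control (log2 fold change -0.71, SE 0.09, edgeR adjusted p = 1.36e-06). Nutrient reservoir genes, a seed storage list, had 14 of 48 tested genes higher and 12 lower (54.2% called), and summed to 2849 to 2977 CPM in MSN leaves and 1609 to 1672 CPM in control leaves.

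The 8 water channel genes under the minimum were at 0 in 3 to 5 of the 6 libraries each, and the highest single count among them was 17, in MSN replicate 3 for GLYMA_12G097800. All but GLYMA_11G228000 carried no compartment term.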
